A study of Homo sapiens with 4 samples.

Results

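ATP-binding cassette (ABC) transporters are membrane proteins that bind and hydrolyze ATP to move drugs, lipids, peptides, metabolites or ions across a membrane. Some of them, such as ABCB1 (P-glycoprotein), ABCC1 (MRP1) and ABCG2 (BCRP), pump anticancer drugs out of cells and are well known in chemotherapy resistance and in stem-like tumor cells. Others carry peptides for antigen presentation (TAP1 and TAP2), serve mitochondria or peroxisomes, or, as in subfamilies E and F, have no membrane domain and work with ribosomes. The genes described here were the rows whose symbol begins with ABC, a subfamily letter from A to G and a digit, together with TAP1 and TAP2. ABCA1 and ABCG1 were left out by that rule. This gave 50 genes of 23228 in the count tables, and 38 of them passed the expression filter and were tested.

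RNA was sequenced from SKOV3-ALDH+ OCSCs, which are cells sorted with the ALDEFLUOR assay from an ovarian cancer cell line and grown as spheroids in serum-free medium with growth factors, hydrocortisone and insulin. The comparison was 24 h of vehicle (2 samples) against 24 h of 5 µM LY500307, an ERβ agonist (2 samples), and it asks which transcripts differ after ERβ agonist treatment. All samples came from 1 cell line and carried the same sort, and no ALDH- or unsorted cells were compared here. No label says that the replicates were separate cultures, and the design text speaks of sequencing in duplicate, so the p-values measure only the spread between these samples, which may be technical.

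Between 28841701 and 34943882 reads were counted on genes per sample, and the ABC genes took 0.173% to 0.191% of them. LY500307 replicates differed from each other more than vehicle replicates did, with a chi-square per degree of freedom of 42.5 against 5.16. Several markers went against the SKOV3 label. PAX8 had no read in any sample, KRT19 had at most 2 reads, and KRT8 had 9 to 33, whereas the epithelial keratin KRT18 had 668 to 1030. WT1 and MUC16 had at most 6 reads, which is not counted for or against the label. ERBB2, which is amplified in SKOV3, stood at only 49.9 ± 1.66 CPM (SD, n = 2) in vehicle samples, and CDKN2A, which SKOV3 cells are known to have lost and which was looked up after the values were seen, had 834 to 1107 reads. EPCAM had 6213 to 8327 reads and the mesenchymal gene PDGFRA 39900 to 48624. Of the sort's ALDH genes, ALDH1A1 had 134 to 185 reads, ALDH1A2 315 to 347 and ALDH1A3 8 to 16. The fibroblast markers COL1A1, COL1A2, PDGFRA and DCN, all 4 detected, summed to 1881 and 1860 CPM with vehicle and 1929 and 2070 CPM with LY500307. On the log2 scale COL1A2 differed by 0.44, COL1A1 by 0.28, PDGFRA by -0.0017 and DCN by -0.20 (LY500307 over vehicle), and none of them met the criteria given below. Their part in the results was not tested. Leukocyte and endothelial markers (PTPRC, CD3E, CD14, PECAM1, CDH5 and VWF) had between 0 and 22 reads. The cells are called by their label here, and the results below describe the cells that were sequenced.

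With LY500307, TAP1 and ABCB9, which both encode peptide transporters, were higher, and ABCB4, a phospholipid exporter, and ABCA10, a member of the ABCA subfamily of lipid transporters, were lower. The study took a gene as different when its p before adjustment was under 0.05 and its log2 ratio of LY500307 to vehicle (log2FC) lay beyond 0.5 in either direction, and these 4 of 38 genes (10.5%) met those criteria. Among all 14473 genes tested 4.62% met them, 2.76% as higher and 1.86% as lower, beside 2 of 38 ABC genes (5.26%) in each direction. With adjustment over all genes by the Benjamini-Hochberg method, edgeR put 0 ABC genes and 0% of all genes below 0.05. DESeq2 gave an adjusted p to 11386 genes and put 20 of them, with 0 ABC genes, below 0.05. ABCB4, ABCB1, ABCC2 and ABCG2 were among the genes without an adjusted p from DESeq2. Before adjustment, 6 ABC genes (15.8%) and 1678 of all genes (11.6%) had p under 0.05 in edgeR. The multidrug pumps ABCB1, ABCC1 and ABCG2 did not meet the criteria. The median log2FC of the 38 genes was 0.06, against -1e-04 for all genes tested. Both LY500307 samples lay above both vehicle samples for 12 ABC genes (31.6%) and below them for 9 (23.7%), where the shares among all genes tested were 24.2% and 24.4%. In bulk RNA, fewer cells that express a gene and less RNA per cell cannot be told apart.

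The promoters of 3 of these 4 genes are shown, and their start regions differ in base composition. Whether promoter composition goes with the direction of a difference was not tested. RefSeq (GRCh38.p14) gave windows of 250 bases before to 50 bases after a start for 36 of the 50 genes, and the first start listed was used. ABCB4 had no window. All 3 genes lie on the minus strand, and capitals mark matches on either strand to the motifs named below.
TAP1, chr6:32853655-32853954: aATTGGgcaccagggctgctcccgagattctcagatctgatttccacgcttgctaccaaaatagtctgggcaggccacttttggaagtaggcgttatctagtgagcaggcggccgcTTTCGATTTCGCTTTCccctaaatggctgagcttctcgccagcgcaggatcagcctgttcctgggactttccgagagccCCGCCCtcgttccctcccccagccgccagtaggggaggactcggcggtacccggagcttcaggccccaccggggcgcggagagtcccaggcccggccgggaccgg
ABCB9, chr12:122966414-122966713: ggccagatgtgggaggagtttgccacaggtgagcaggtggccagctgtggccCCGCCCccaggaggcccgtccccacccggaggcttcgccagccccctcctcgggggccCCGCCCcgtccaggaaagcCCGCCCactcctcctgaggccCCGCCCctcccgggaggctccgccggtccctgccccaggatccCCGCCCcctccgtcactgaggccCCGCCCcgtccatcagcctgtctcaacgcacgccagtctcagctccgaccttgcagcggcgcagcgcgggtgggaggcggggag
ABCA10, chr17:69244799-69245098: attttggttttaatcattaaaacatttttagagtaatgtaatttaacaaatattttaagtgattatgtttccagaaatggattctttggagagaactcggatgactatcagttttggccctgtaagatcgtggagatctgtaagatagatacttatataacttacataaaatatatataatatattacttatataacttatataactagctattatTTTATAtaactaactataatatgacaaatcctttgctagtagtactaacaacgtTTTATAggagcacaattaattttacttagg

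The TAP1 window was 63.0% GC and held 2 overlapping matches to the core of the interferon-stimulated response element, GAAANNGAAA, which begin 134 and 128 bases before the start. This core is found in 3.65% of the 27305 gene windows and in 4 of the 36 ABC windows, the others being TAP2, ABCC2 and ABCA9. The TAP1 window also held 1 GC box (GGGCGG, in 44.6% of windows) and 1 CCAAT box (CCAAT, in 35.7%). The ABCB9 window was 75.3% GC with 6 GC boxes, and the ABCA10 window was 25.0% GC with 2 matches to TATAAA (in 12.0% of windows). No window of the 36 ABC genes held the full estrogen response element GGTCANNNTGACC, which was in 0.0659% of all windows, and 11 held GGTCA, a single arm of that element (37.7% of windows). The letters GGTCA were in none of the 3 windows shown. TTCNNNGAA, the interferon-gamma activated site, was in 1 ABC window (ABCC5) and in 7.88% of all windows, and CACGTG, an E-box, was in 3 and in 7.43%. These are letter matches in 1 window per gene, not sites of binding.

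Peptide transporters are described first. TAP1 and TAP2 form the heterodimer that carries cytosolic peptides into the endoplasmic reticulum for loading onto MHC class I, and ABCB9 (TAPL) carries peptides into lysosomes. TAP1 lies on chromosome 6 of GRCh37 from 32812986 to 32821593. With vehicle it had 207 and 197 reads, and with LY500307 it had 339 and 466, which is 6.91 and 6.93 CPM (reads scaled to library size as counts per 1e6) against 9.77 and 14.4 CPM. The vehicle samples were nearly equal, both LY500307 samples were above them, and LY500307 replicate 2 was the highest. Its log2FC, with the SE (SE) of the fit, was 0.80 (SE 0.22, unadjusted p = 0.00659, adjusted p = 0.422 with edgeR), a 1.75-fold difference. Without LY500307 replicate 2 the log2FC was 0.4994, just under the limit, and without LY500307 replicate 1 it was 1.06. TAP2, its partner and neighbor on chromosome 6, had 44.8 and 41.1 CPM with vehicle and 39.4 and 46.8 CPM with LY500307. The TAP2 groups overlapped, and the log2FC was 0.00 (0.0039, SE 0.13). Scaled also per kilobase of exon (RPKM), the level of TAP2 was 4.16 and that of TAP1 was 2.01 as means of the 4 samples. TAP1 shares 672 bases of exon with PSMB8-AS1, a long noncoding RNA gene on the opposite strand that has no counts here. The strand setting of the counting is not stated, and whether reads of PSMB8-AS1 add to the TAP1 value was not tested.

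ABCB9 lies on chromosome 12 of GRCh37 from 123405498 to 123466196. It had 7.31 and 7.42 CPM with vehicle and 9.45 and 12.1 CPM with LY500307, from 219, 211, 328 and 392 reads. Both LY500307 samples were higher than both vehicle samples, and again replicate 2 was the higher of the pair. For ABCB9 the log2FC was 0.55 (SE 0.19, unadjusted p = 0.0208, adjusted p = 0.422 with edgeR). It was 0.36 without LY500307 replicate 2. Without vehicle replicate 1 it was 0.54 and without vehicle replicate 2 it was 0.56, and ABCB9 missed the criteria in both because its p was above 0.05. ABCB9 shares 2752 bases of exon with a long noncoding RNA gene that has no counts here. It also shares 1656 with OGFOD2 and 1590 with ARL6IP4. All of these lie on the opposite strand, and the strand setting of the counting is not stated. OGFOD2, looked up for this overlap, had 281 and 267 reads with vehicle and 388 and 547 with LY500307, a log2FC of 0.58 (SE 0.22). ARL6IP4 had a log2FC of -0.26 (SE 0.11). Whether reads of OGFOD2 add to the ABCB9 value was not tested.

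The genes that work with TAP in peptide loading were examined beside it. PSMB9, an immunoproteasome subunit gene that starts head to head with TAP1, had 2 to 5 reads in each sample, and its neighbor PSMB8 had 0 to 5, so neither was tested. Of 19 loading partners, 16 were tested and 0 met the criteria with edgeR (1 had an unadjusted p below 0.05, and 1 met the criteria with DESeq2), where 4.62% of all genes tested met the criteria and 11.6% had such a p. HLA-B had 863 and 885 reads with vehicle and 1203 and 1509 with LY500307, a log2FC of 0.44 (SE 0.16, unadjusted p = 0.0257, adjusted p = 0.422 with edgeR). PSMB10, another immunoproteasome subunit, had 143 and 168 reads against 211 and 353, a log2FC of 0.67 (SE 0.29, unadjusted p = 0.0522, adjusted p = 0.431 with edgeR). B2M, the class I light chain, had a log2FC of -0.14 and TAPBP (tapasin) of -0.11. The median of the 16 genes was 0.05. Since reads that map to more than 1 place were not counted, near-identical class I genes are uncertain.

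**Figure D1:**
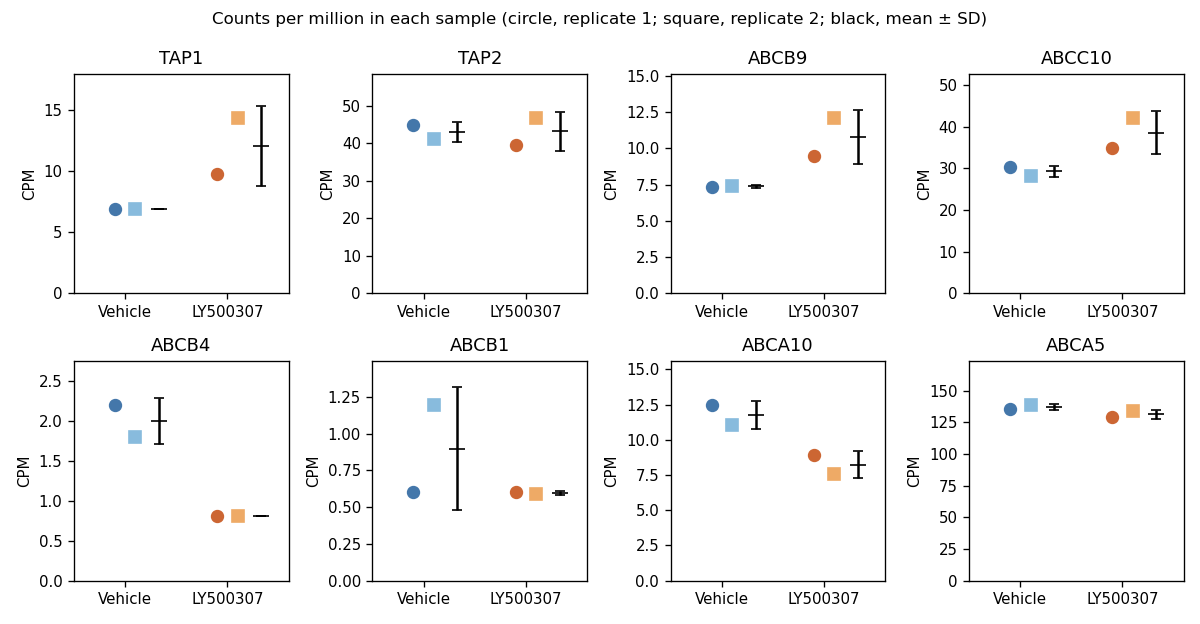
CPM in each sample (y axes from 0) for 8 ABC genes in vehicle and LY500307 samples, with circles for replicate 1, squares for replicate 2 and black bars for the mean ± SD (n = 2). Both LY500307 samples lie above vehicle for TAP1, ABCB9 and ABCC10 and below it for ABCB4, ABCA10 and ABCA5, whereas TAP2 and ABCB1 overlap.

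The exporters of bile and phospholipid were low in these cells. ABCB4 (MDR3), which moves phosphatidylcholine into bile in the liver, lies next to ABCB1 on chromosome 7 of GRCh37, from 87031012 to 87109751. It had 66 and 51 reads with vehicle and 28 and 26 reads with LY500307, which is 2.20 and 1.79 CPM against 0.807 and 0.804 CPM. Both LY500307 samples were lower and almost equal to each other. This gave ABCB4 a log2FC of -1.31 (SE 0.35, unadjusted p = 0.00632, adjusted p = 0.422 with edgeR), a ratio of 0.404. ABCB4 met the criteria without any 1 of the 4 samples, with log2FCs from -1.45 to -1.15, but each value rests on at most 66 reads. ABCC2 (MRP2), an exporter of conjugated anions that is also a drug pump, had 25 and 34 reads against 28 and 16, a log2FC of -0.63 (SE 0.48, unadjusted p = 0.229, adjusted p = 0.578 with edgeR). ABCB11, the bile salt export pump of the liver, had no read in any sample.

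Multidrug efflux pumps differed by orders of magnitude among themselves, and none of the 7 that were tested met the criteria. ABCC1 had the highest level of these pumps, with 116 and 112 CPM with vehicle and 119 and 124 CPM with LY500307. Its log2FC was 0.10 (SE 0.10, unadjusted p = 0.346, adjusted p = 0.669 with edgeR). The groups did not overlap, but the difference was the size of its SE. ABCC5 and ABCC4, which also export cyclic nucleotides, each had a log2FC of 0.10 (SE 0.11). ABCC5 stood at 94.4 ± 3.07 CPM with vehicle and 101 ± 10.4 CPM with LY500307, and ABCC4 at 38.4 ± 0.376 and 41.1 ± 1.71 CPM (SD, n = 2 for each).

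ABCC10 (MRP7), which can export taxanes, had the largest positive difference among the pumps. It had 30.3 and 28.3 CPM with vehicle and 35.0 and 42.3 CPM with LY500307. Both LY500307 samples were above both vehicle samples. Its log2FC of 0.40 (SE 0.14, unadjusted p = 0.0198, adjusted p = 0.422 with edgeR) was under the limit of 0.5, and it passed the limit, at 0.53, without LY500307 replicate 1.

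The pumps most often named in stem-like cells were low. ABCB1 had 18 and 34 reads with vehicle and 21 and 19 with LY500307. The groups overlapped, with vehicle replicate 2 above the other 3 samples. Its log2FC of -0.58 (SE 0.52, unadjusted p = 0.292, adjusted p = 0.627 with edgeR) was -0.01 without vehicle replicate 2 and -0.9992 without vehicle replicate 1. ABCG2, the pump behind the side population assay, had 66 and 87 reads with vehicle and 72 and 105 with LY500307. The ABCG2 groups overlapped, and the log2FC was 0.02 (SE 0.33). At this depth a change of ABCG2 or ABCB1 the size of these errors, or somewhat larger, could not be detected. The ABCB1 difference was larger than its SE and still had the unadjusted edgeR p of 0.292 given above. ABCC11 had 5 to 13 reads and ABCC3 1 or 2 reads, and neither was tested. On the RPKM scale ABCC1 stood at 13.5, against 0.472 for ABCG2, 0.116 for ABCB1 and 0.106 for ABCC2.

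**Figure D2:**
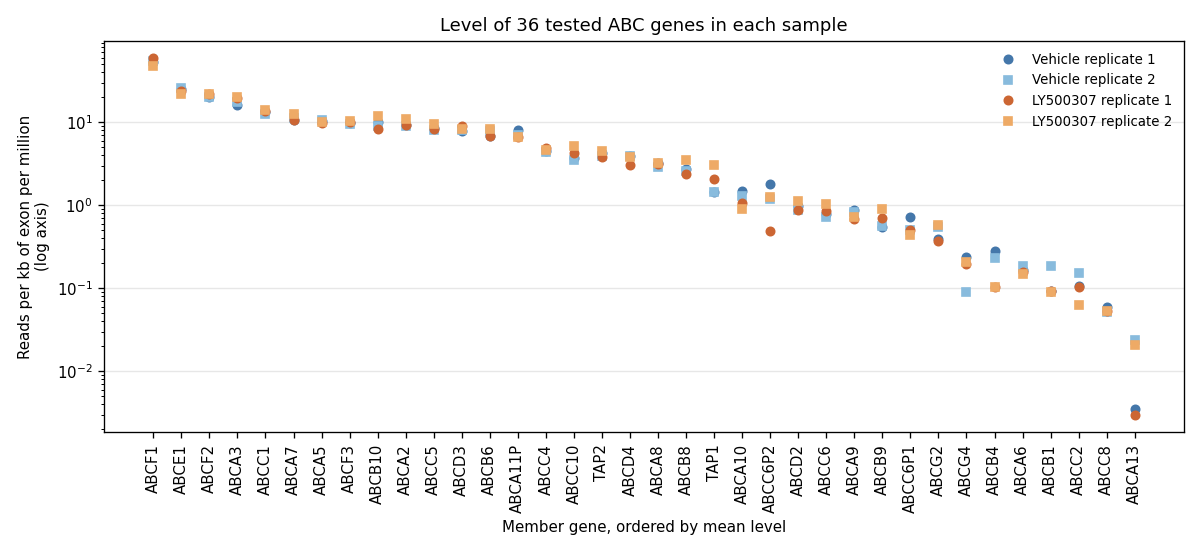
RPKM (log axis) in each of the 4 samples for 36 of the 38 tested ABC genes, ordered by their mean. ABCF1 is highest at 53.9 and ABCA13 lowest at 0.0129.

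Levels per kilobase of exon placed the ribosome-associated genes at the top. ABCF1, a factor that binds the initiation factor eIF2, stood at 53.9 RPKM (47.9 to 59.0 over the 4 samples). ABCE1, which splits ribosomes after termination, followed at 24.1 (21.7 to 25.8), ABCF2 at 21.0 (20.2 to 21.9), ABCA3 at 18.4 (16.3 to 20.4) and ABCC1 at 13.5 (12.8 to 14.2). The ranges of ABCE1 and ABCF2 over the 4 samples overlapped, as did those of ABCF2 and ABCA3. These ranges pool samples and treatments, so they do not give the order of the genes within a sample. In all, 8 genes had a mean of at least 10 RPKM, 17 lay between 1 and 10, 19 were under 1, and 6 had no read. The 6 without a read were ABCB11, ABCC9, ABCC12, ABCC13, ABCG5 and ABCG8. A count of 0 allows up to 3 reads, or 0.0864 to 0.106 CPM, for counting error only. The 12 genes that were not tested had 0 to 13 reads in each sample.

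Differences in the ribosome-associated genes were small. ABCF1 had 239 and 249 CPM with vehicle and 265 and 215.5 CPM with LY500307, so that LY500307 replicate 1 was the highest sample and LY500307 replicate 2 the lowest. Its log2FC was -0.02 (SE 0.12). ABCE1 had 157 and 161 CPM against 149 and 136 CPM, both LY500307 samples being lower, with a log2FC of -0.16 (SE 0.10, unadjusted p = 0.145, adjusted p = 0.508 with edgeR). ABCE1 stood at 0.00 (0.0023) with a correction for GC content. ABCF2 was 0.11 and ABCF3, a relative of the yeast translation regulator GCN20, 0.07 on the log2 scale, and none of the 4 met the criteria.

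The ABCA subfamily, whose members carry lipids, held a gene cluster on chromosome 17. In the order ABCA8, ABCA9, ABCA6, ABCA10 and ABCA5, these 5 genes lie between 66863430 and 67323385 of GRCh37 on the minus strand. ABCA10 (67143355 to 67240987) had 12.5 and 11.1 CPM with vehicle and 8.93 and 7.55 CPM with LY500307, from 374, 314, 310 and 244 reads. Both LY500307 samples were lower than both vehicle samples. This gave ABCA10 a log2FC of -0.51 (SE 0.18, unadjusted p = 0.0209, adjusted p = 0.422 with edgeR). It was -0.42 without vehicle replicate 1 and -0.40 without LY500307 replicate 2, under the limit in both.

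The neighbors of ABCA10 did not meet the criteria. Its direct neighbor ABCA5, a lysosomal and endosomal member, had 135.5 and 139 CPM with vehicle and 129 and 134 CPM with LY500307, a log2FC of -0.06 (SE 0.09). ABCA5 and ABCA10 share 318 bases of exon on the same strand. ABCA6, the neighbor on the other side, had 71 and 74 reads against 77 and 68, which after scaling is a log2FC of -0.20 (SE 0.28). ABCA9 had -0.28 (SE 0.18) and ABCA8 0.07 (SE 0.12). In 4 of the 5 cluster genes both LY500307 samples lay below both vehicle samples, where 24.4% of all genes tested did so, and the median of the 5 was -0.20. The exons of these genes were 35.3% (ABCA5) to 42.2% (ABCA8) GC, and log2FC moved with GC content, as given below. With a correction for GC content ABCA10 had -0.38, ABCA6 -0.08 and ABCA5 0.11. Corrected values of ABCA8 and ABCA9 are not given here. Of the other ABCA genes, ABCA3, which fills lamellar bodies with surfactant lipid in the lung, had 127 and 136 CPM with vehicle and 153 and 159.5 CPM with LY500307. Its log2FC was 0.25 (SE 0.10, unadjusted p = 0.0345, adjusted p = 0.428 with edgeR), with both LY500307 samples higher. ABCA2 had a log2FC of 0.13 and ABCA7 of 0.08, with overlapping groups. ABCA13 had 2 to 13 reads, ABCA12 4 to 11 and ABCA4 4 to 6.

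**Figure D3:**
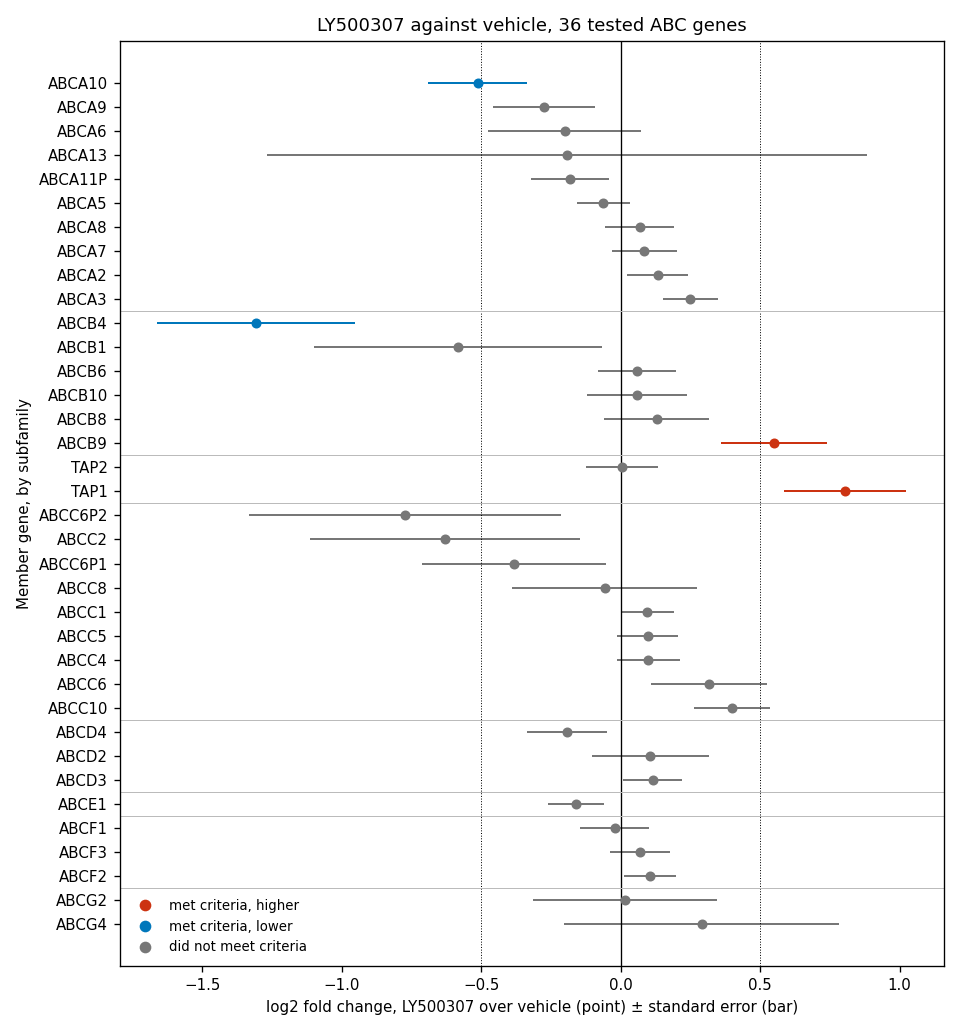
The log2FC of LY500307 over vehicle (points) with its SE (bars) for 36 of the 38 tested ABC genes, grouped by subfamily, with dotted lines at the limit of 0.5. TAP1 at 0.80 and ABCB9 at 0.55 met the criteria as higher and ABCB4 at -1.31 and ABCA10 at -0.51 as lower.

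Mitochondrial transporters showed little difference. ABCB10, a partner of heme synthesis, had 43.5 and 39.1 CPM with vehicle and 35.1 and 51.0 CPM with LY500307, a log2FC of 0.06 (SE 0.18). The 2 LY500307 samples lay on either side of vehicle for ABCB10, as they did for ABCB8, which had 25.9 and 24.1 CPM against 22.0 and 32.6 CPM. ABCB6, a porphyrin transporter, had a log2FC of 0.06 (SE 0.14). None of these 3 genes met the criteria, and all 3 had a positive log2FC of at most 0.13.

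In subfamily D, ABCD2 and ABCD3 import fatty acids into peroxisomes and ABCD4 acts in lysosomal cobalamin export. ABCD3 had a log2FC of 0.12 (SE 0.11) with both LY500307 samples higher, and ABCD2 0.11 (SE 0.21). ABCD4 had 34.8 and 35.1 CPM with vehicle and 27.1 and 34.1 CPM with LY500307, a log2FC of -0.19 (SE 0.14) in which LY500307 replicate 1 was the lowest sample. None of these 3 met the criteria.

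The remaining members included ABCC6, the gene of pseudoxanthoma elasticum, with a log2FC of 0.32 (SE 0.21). Its near copies ABCC6P1 and ABCC6P2 had -0.38 and -0.77 (SE 0.33 and 0.56), and reads shared among these 3 loci may have been dropped or split. ABCA11P, a pseudogene that shares 1647 of its exonic bases with ZNF721 on the same strand, had -0.18 (SE 0.14), and ZNF721 itself had -0.28. ABCC8, the sulfonylurea receptor of the pancreatic ATP-sensitive potassium channel, had 40 to 51 reads and a log2FC of -0.06, and its paralog ABCC9, the other sulfonylurea receptor, had no read. ABCG4 had 45 and 16 reads with vehicle and 43 and 42 with LY500307, so that vehicle replicate 2 was the lowest sample.

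Other genes of drug transport and handling formed a list of 26, of which 18 were tested and 1 met the criteria, a share near the 4.62% of all genes tested. This was AHR, the aryl hydrocarbon receptor that drives xenobiotic enzymes, with 5 and 6 reads against 32 and 16 and a log2FC of 1.89 (SE 0.64). MVP, the major vault protein, had 0.26 (SE 0.16), the copper pumps ATP7A and ATP7B, which also handle platinum drugs, had -0.14 and 0.24, and the copper importer SLC31A1 had 0.11. GSTP1, a glutathione transferase, had 241.5 ± 4.59 CPM with vehicle and 296 ± 50.7 CPM with LY500307 (SD, n = 2), a log2FC of 0.30 (SE 0.13). CFTR, the ABCC member with a channel function, had no read, and the xenobiotic receptors NR1I2 and NR1I3 had at most 2 reads.

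The difference between LY500307 and vehicle moved with base composition and with 1 library. Across the 38 ABC genes the log2FC and exonic GC content had a Spearman rho of 0.58 (0.576), and across 13786 genes with a known GC content it was 0.33 (0.334). These genes share libraries, so the values are given as a description. With a correction for GC content the log2FC of TAP1 was 0.71 and that of ABCB4 was -1.25, and both still met the criteria. ABCB9 was then 0.46 (0.455 before rounding) and ABCA10 -0.38, both under the limit. Against the mean of the vehicle samples, LY500307 replicate 1 was higher for 16 of the 38 genes with a median log2 ratio of -0.06, and LY500307 replicate 2 was higher for 24 with a median of 0.10. The same counts over all genes were not made, so these are not read as particular to ABC genes. Without LY500307 replicate 2 the median log2FC was -0.06 for ABC genes and -0.001 for all genes tested. Without LY500307 replicate 1 it was 0.11 and -0.0045. Reads on no feature made up 25.5% of uniquely tallied reads in LY500307 replicate 2 and 28.4% to 30.8% in the other samples. Without LY500307 replicate 2 the log2FC was 0.4994 for TAP1, 0.36 for ABCB9, 0.26 for ABCC10, -1.30 for ABCB4 and -0.40 for ABCA10. Without LY500307 replicate 1 they were, in the same order, 1.06, 0.72, 0.53, -1.31 and -0.64. The part of GC content and of this library in each difference was not tested beyond these values.

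**Figure D4:**
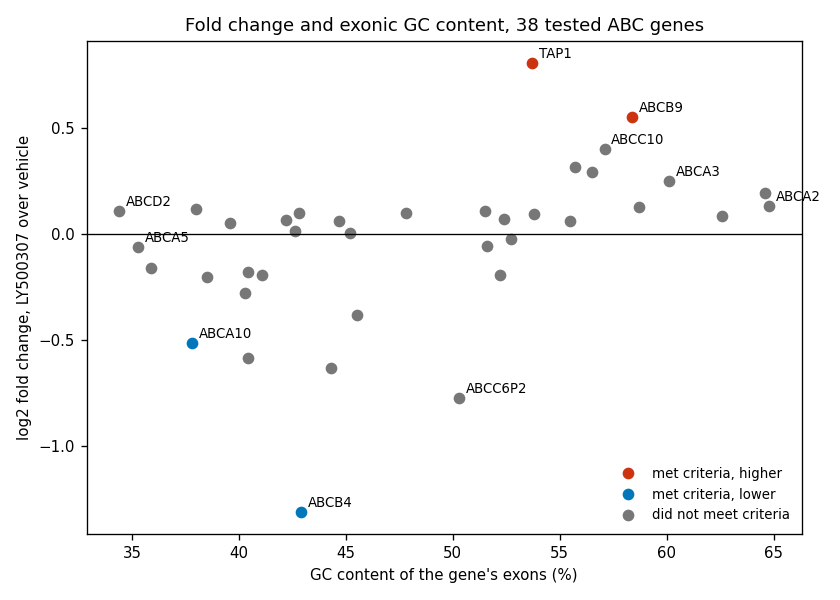
The log2FC of LY500307 over vehicle against the GC content of each gene's exons, for the 38 tested ABC genes. TAP1 (53.7% GC) and ABCB9 (58.4%) lie above 0 and ABCB4 (42.9%) and ABCA10 (37.8%) below it, and Spearman's rho over the points is 0.58.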

How the data were processed

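RNA-seq was analyzed for 2 vehicle and 2 LY500307 samples of SKOV3-ALDH+ OCSCs, grouped by their titles. Per the labels, the authors aligned reads to hg19 with TopHat2 2.0.8b and counted them with HTSeq, and the deposited values are raw counts per gene symbol, without normalization. The design text says that raw reads of duplicates were merged by the authors. The sources differ on the library kit (total RNA per the labels, stranded mRNA per the methods), and the strand setting of the counting is not given in the sources used here. HTSeq's 5 tally lines, among them multimapped reads (32.3% to 33.4% of all tallied alignments), named no gene and were left out of library sizes and tests.

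The test was the quasi-likelihood F test of edgeR 4.0.16 (R 4.3.3) after TMM scaling and filterByExpr, and p was adjusted over 14473 genes by the Benjamini-Hochberg method. The criteria (p before adjustment under 0.05, log2 ratio beyond 0.5 either way) are those of the study, which used DESeq2. The standard error is the absolute log2 fold change divided by the square root of F. CPM values use TMM-scaled library sizes. The smallest two-sided p that an exact permutation of 2 against 2 samples allows is 0.333. DESeq2 1.42.0, its size factors, library totals alone, other filters (at least 1 read, or at least 1 CPM in 2 samples), a replicate block, a GC correction (loess, span 0.3, of log2 CPM with a prior count of 2) and leaving out each sample were run as alternatives. A crossed block was added after the data were seen. Exonic length, GC content and GRCh37 (hg19) coordinates came from GENCODE v44 lifted to GRCh37. Exonic length is the merged length of all exons annotated for a gene. The gene models behind the counts may differ from these, so RPKM compared between genes is approximate. Lengths or GC were found for 91.8% of 23228 symbols, 2184 through a RefSeq synonym (GRCh38.p14). Promoters are RefSeq windows of GRCh38.p14. Scripts were tested on simulated data. A few genes are not reported here singly, though counts and medians over all ABC genes include every one.

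The named genes were the ABC genes that met the criteria, the 5 highest per kilobase, the multidrug pumps, TAP1, TAP2 and the neighbors of genes that met the criteria. The other ABC genes were described by role, and OGFOD2, ARL6IP4, ZNF721 and CDKN2A were added after their values were seen. The members, lists and motifs were chosen with earlier results of these data known.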

Additional observations from a re-analysis of the deposited data

How the results depend on the processing

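The 2 higher and 2 lower ABC genes met the criteria with DESeq2 (adjusted p = 0.115 for TAP1, 0.33 for ABCB9 and 0.343 for ABCA10, with no adjusted p for ABCB4), with its size factors in edgeR and with both other filters. With library totals alone 2 were higher and 1 was lower, since ABCA10 had -0.48. With the GC correction, and with the replicate block and GC correction, 1 was higher (TAP1) and 1 lower (ABCB4), with ABCB9 at 0.46 and 0.45 and ABCA10 at -0.38 in both. When each sample was left out in turn, 0 to 3 ABC genes were higher and 1 to 2 lower, and the median ranged from -0.06 to 0.11. Over these 4 fits log2FC went from 0.50 (0.4994) to 1.06 for TAP1, from 0.36 to 0.72 for ABCB9, from -0.64 to -0.40 for ABCA10 and from -1.45 to -1.15 for ABCB4. ABCC10 ranged from 0.26 to 0.53.

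Among the genes named by rule, the sign turned for ABCF1 (0.01 with library totals alone and without vehicle replicate 2, or 0.0147 and 0.0069, and from -0.18 to 0.12 when each sample was left out), for ABCE1 (0.0023 with the GC correction and 0.0022 with the block and GC correction), for ABCA5 (0.11 and 0.10 in the same fits), for ABCC5 (-0.01, or -0.0094, without LY500307 replicate 2, up to 0.20 without replicate 1), for ABCG2 (-0.20 without vehicle replicate 1 and -0.34 without LY500307 replicate 2, up to 0.31) and for TAP2 (-0.06 without vehicle replicate 2 and -0.12 without LY500307 replicate 2, up to 0.13). None of these met the criteria in any fit, and the cause was not tested. The loading partners had 1 higher gene in place of 0 with DESeq2, with no filter, with the replicate block, with the crossed block and without vehicle replicate 2, and 2 higher and 1 lower without LY500307 replicate 1. In the drug handling list, AHR was no longer tested with the stricter filter, and 0 genes were higher and 1 lower without LY500307 replicate 1. ABCB1 and ABCC2 were not tested with the stricter filter.

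With the replicate number as a block, 2 ABC genes were higher and 2 lower, as in the fit without it, and TAP1 had 0.78 (edgeR adjusted p = 0.203). Deviations of same-numbered samples had a correlation of -0.07 over all genes tested and -0.23 over the more highly expressed ones, and shared numbers were not taken as pairs. A crossed block, added after the data were seen, paired samples of unlike replicate number, which no label gives. It gave 781 genes meeting the criteria, with 2 ABC genes higher and 2 lower. In that fit 381 genes had an adjusted p below 0.05, among them 1 ABC gene, TAP1 (edgeR adjusted p = 0.0277). Because this pairing follows the sign of the correlation in these same data, its p-values are not taken as support. Leaving out either LY500307 replicate leaves a lone treated sample, assumed to vary as the vehicle pair does. Adjusted p-values of those fits are therefore not given. Over all genes, 669 met the criteria, 59.8% of them as higher, and this share was 47.2% with the block and GC correction. Without LY500307 replicate 1 there were 1987 and without LY500307 replicate 2 there were 352. The depth limits ABCB4, ABCB1, ABCC2 and ABCG2, with at most 105 reads per sample.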
